A study of Mus musculus with 3 samples.

Results

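Chromatin of Seh1cKO cells after 1 day of the thyroid hormone triiodothyronine (T3) was compared with chromatin of control oligodendrocyte progenitor cells that had not received it. The 45095 autosomal peaks of the Seh1cKO library and the 105546 of the progenitor library, out of 273342 peaks in all 3 deposited tables, were joined into 114188 sites wherever they overlapped by at least 1 bp. Positions of sites are 1-based, in mm10. Both groups were C57BL/6 mouse cells from cortices of postnatal day 4 to 7, isolated by immunopanning with antibodies to GalC and to O4 in turn, and each library was made from 50000 cells. Progenitor medium held PDGF-AA and bFGF at 20 ng/ml each, NT3 at 1 ng/ml and CNTF at 10 ng/ml. For differentiation, T3 was added at 60 nM and PDGF-AA, bFGF and NT3 were withdrawn. Genotype, T3 and growth factor withdrawal therefore differ together between these groups and cannot be told apart. A library of control cells after 1 day of T3 stands beside them as the other reference. Each group was 1 library, so no difference below has a replicate check or a p-value, and every interval covers counting error only. The sources used here name neither the Cre driver, the deleted part of the gene nor the animals behind each library, and the letters DO in the progenitor title were read as day 0.

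Assay for transposase-accessible chromatin with sequencing (ATAC-seq) inserts adapters into open DNA, so a pile of fragments marks a gene start or a regulatory element free of tightly packed nucleosomes. Oligodendrocyte progenitors divide under PDGF and FGF signals, and withdrawal of these signals with addition of T3 sends them towards oligodendrocytes, the myelin-forming cells of the brain. T3 acts through nuclear receptors that sit on DNA near genes such as Klf9 and Hr. Seh1, encoded by Seh1l, is a scaffold subunit of the Y complex, which builds the ring of the nuclear pore. The comparison asks how far knockout cells under T3 still had the open chromatin of progenitors.

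The libraries held 23403600 fragments for progenitors, 10845533 for Seh1cKO cells, which is 46.3% as many, and 18260883 for control cells at day 1. The weakest peak called had a summit pileup of 9 fragments in progenitors, 6 in Seh1cKO cells and 8 in control cells at day 1. Levels below are the pileup at the summit per 1000000 fragments of the library (FPM). Of the defining progenitor markers, Pdgfra, Olig1 and Ptprz1 had a gene-start peak in both libraries, and Cspg4 had none in any of the 3. Gene starts of Cx3cr1, Aif1, Cldn5, Pecam1 and Cdh5, which define microglia and endothelial cells, had no peak in any of the 3 libraries. Those of P2ry12 (microglia) and Aldh1l1 (astrocytes) had a peak in all 3, Gfap had one in Seh1cKO and control day 1 cells (17 and 28 fragments), and Tmem119 in progenitors and control day 1 cells (10 and 15).

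Most peaks of the Seh1cKO cells were already present in progenitors, and most progenitor peaks had no call in Seh1cKO cells. Of the Seh1cKO peaks, 78.5% (95% exact Clopper-Pearson interval 78.1 to 78.9) overlapped a progenitor peak. Of the progenitor peaks, 33.3% (33.0 to 33.6) overlapped a Seh1cKO peak. Among the strongest peaks, those with a −log10 q of at least 10, the shares were 99.4% of 15224 Seh1cKO peaks and 89.9% of 26163 progenitor peaks. With both lists cut to their 45095 strongest peaks, 70.2% (69.7 to 70.6) of Seh1cKO peaks lay in progenitor peaks and 70.0% (69.6 to 70.4) lay in control day 1 peaks. By this measure the Seh1cKO library was as near to one control library as to the other, and the 2 control libraries were no nearer to each other, at 70.2%.

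Position in the genome went with whether a peak was shared. A site within 1000 bp of a protein-coding gene start was called a gene-start site. Of progenitor gene-start peaks, 75.8% were called in Seh1cKO cells, against 26.8% of peaks elsewhere within genes and 24.3% of peaks between genes. In the other direction the shares were 93.1%, 74.5% and 70.3%. The gene-start share was the higher in 10 of 10 deciles of peak strength in both directions. Averaged over deciles it was higher by 14.9 points for progenitor peaks and by 7.62 points for Seh1cKO peaks.

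**Figure D1:**
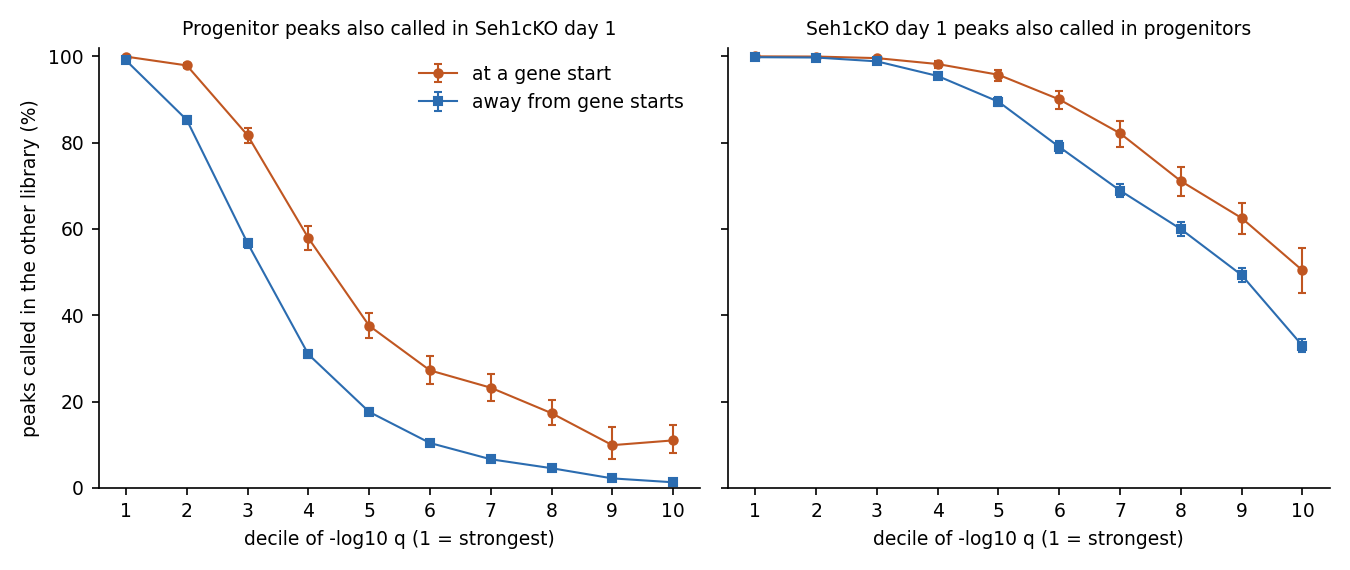
Share of peaks (%, y axis) called in the other library, for each decile of −log10 q from strongest to weakest (x axis), at gene starts (circles) and elsewhere (squares), with exact 95% binomial intervals. Gene-start peaks lie above the others in all 10 deciles of both panels.

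Joined into sites, 34125 (29.9%) were called in both libraries, 70378 (61.6%) in progenitors only and 9685 (8.48%) in Seh1cKO cells only. Of the sites called in both, 93.4% also had a peak in control cells at day 1, and 34.8% were at gene starts. Of the progenitor-only sites, 5.61% were at gene starts and 19.5% had a control day 1 peak. They were weak, with a median of 12 fragments, and 59.0% would fall under the lowest Seh1cKO pileup of 6 fragments if scaled to that library's depth. Only 2087 (2.97%) would reach at least 2 times that pileup, so for most of these sites a loss was not detectable at this depth. Of the Seh1cKO-only sites, 41.7% had a control day 1 peak and 9.42% were at gene starts. These were weak too, with a median of 8 fragments, which is 17.3 if scaled up to the progenitor depth. Even a Seh1cKO call of 6 fragments scales to 12.9, above the lowest progenitor call of 9. No Seh1cKO-only site could thus fall under that call, and the scaling does not tell whether progenitors lack these sites.

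At sites called in both libraries, gene starts had higher FPM in Seh1cKO cells while the medians of other sites were closer to the progenitor level. The 11870 gene-start sites had a median log2 ratio of Seh1cKO to progenitors of 0.47, the 11590 sites within genes 0.11 and the 10665 between genes 0.18. Over all 34125 sites the median was 0.27, with an interquartile range from −0.11 to 0.61. At least 2-fold higher in Seh1cKO cells were 2315 sites (6.78%), and at least 2-fold lower were 542 (1.59%). Gene starts made up 1145 of the higher sites and 18 of the lower ones. Gene starts had the higher median in all 10 deciles of summed level, by 0.04 to 0.58. The gap was smallest in the weakest decile, with medians of 0.41 at gene starts and 0.37 elsewhere. In the strongest decile they were 0.55 and 0.01. The weakest peak called stood at 0.55 FPM in Seh1cKO cells and 0.38 in progenitors. The part of this limit in the ratios of weak sites was not tested. Among the 14381 sites whose −log10 q reached 10 in both libraries, the medians were 0.53 at gene starts, 0.11 within genes and 0.16 between genes.

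The zero point of these ratios depends on the scale. By the authors' fold enrichment over local background, the medians at these sites were 0.016 at gene starts, −0.18 within genes and −0.15 between genes. That scale moved the overall median to −0.087, reversing its sign, and gave 186 sites at least 2-fold higher and 858 at least 2-fold lower. Gene starts stayed above other sites on both scales, by 0.36 in FPM and 0.18 by fold enrichment. The median fold enrichment of all peaks was 5.41 in the Seh1cKO library, 3.91 in progenitors and 4.28 in control cells at day 1. The part that this difference between the libraries plays in the ratios was not tested.

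Control cells at day 1 were set beside the same progenitor library over the 31955 sites called in all 3 libraries. Both comparisons share the progenitor library, so the medians are given side by side. At gene starts they were 0.47 for Seh1cKO cells and 0.47 for control cells. Within genes they were 0.11 and 0.43, and between genes 0.14 and 0.36. In FPM both comparisons gave the same median at gene starts, and away from gene starts that of Seh1cKO cells was the lower. By fold enrichment the medians of Seh1cKO cells were lower at gene starts too, 0.014 against 0.13 in control cells, and within genes they were −0.19 and 0.18.

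**Figure D2:**
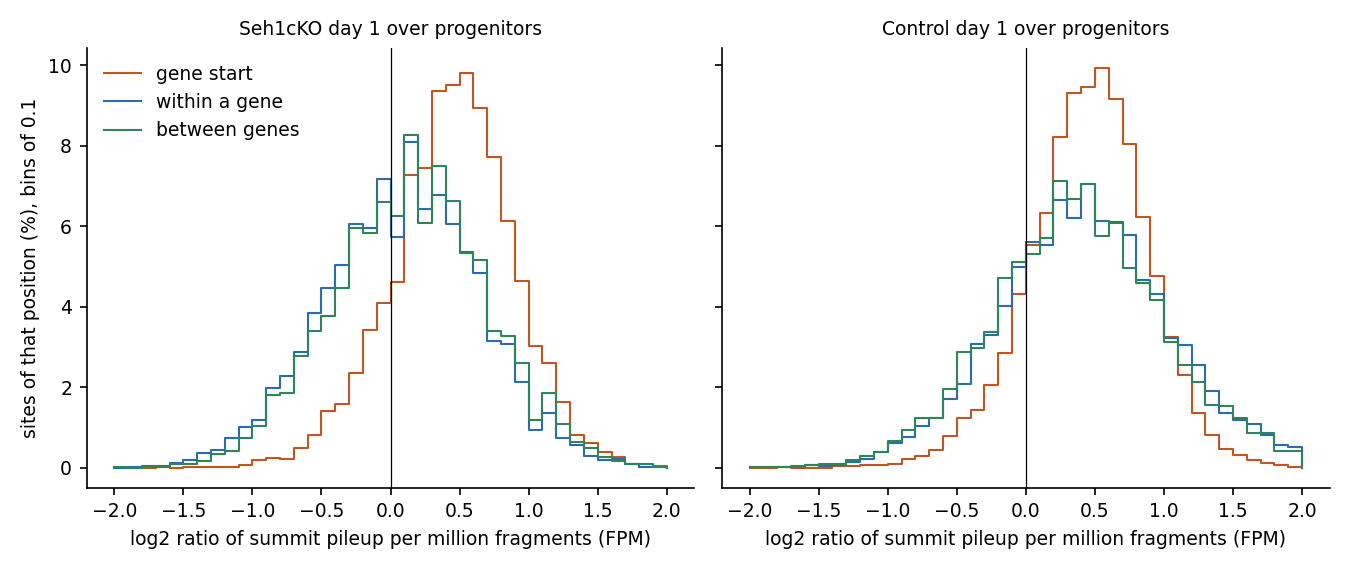
Distribution of the log2 ratio of FPM (x axis) at sites called in all 3 libraries, as the percentage of sites of each position (y axis, bins of 0.1). Seh1cKO cells are set over progenitors at left and control day 1 cells over progenitors at right; at left the gene-start curve lies to the right of the other curves, with medians of 0.47, 0.11 and 0.14.

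The spread of the ratios gave a further measure of nearness. Over these sites the SD of the log2 ratio was 0.545 between Seh1cKO cells and progenitors, 0.625 between Seh1cKO and control day 1 cells and 0.581 between the 2 control libraries. Counting error alone would give 0.452 for the first pair, 0.377 for the control pair. The SD beyond counting error was 0.305 for Seh1cKO against progenitors, 0.433 for Seh1cKO against control day 1 and 0.443 for the 2 controls. Seh1cKO cells at day 1 thus lay nearer to progenitors than to control cells at day 1 by this measure, mainly away from gene starts. At gene starts the SD was 0.442 to progenitors and 0.449 to control day 1. Within genes it was 0.560 and 0.681, and between genes 0.558 and 0.673. An SD leaves out a shift of the median. At gene starts the median log2 ratio of Seh1cKO cells was 0.47 to progenitors and −0.003 to control day 1. The order of the pairs of Seh1cKO cells was the same at the 14013 sites whose −log10 q reached 10 in all 3, with an SD of 0.474 to progenitors and 0.518 to control day 1. The 2 control libraries had the smallest SD there, 0.458. Beyond counting error the SD at those sites was 0.345 for Seh1cKO against progenitors, 0.364 for the 2 controls and 0.405 for Seh1cKO against control day 1.

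The sites with the highest ratios were mostly gene starts, and those with the lowest were mostly inside genes. They were picked by their Seh1cKO and progenitor values, so the gap between these is a description. Of 12031 sites at gene loci, under 3000 bp wide, whose −log10 q reached 10 in both libraries, 66.9% were gene starts. Among the 100 with the highest ratio 90 were gene starts, and among the 100 with the lowest ratio 3 were, with 89 elsewhere within genes. The 100 highest had medians of 1.32 FPM in progenitors, 3.87 in Seh1cKO cells and 2.74 in control cells at day 1. The 100 lowest had medians of 4.08, 2.03 and 4.05, alike in the 2 control libraries and lower in Seh1cKO cells.

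Among these sites at gene loci and under 3000 bp wide, the highest ratio was at the start of Tomm7, a small subunit of the import channel of the outer mitochondrial membrane. Its summit held 29 fragments in progenitors, 53 in Seh1cKO cells and 54 in control cells at day 1, or 1.24, 4.89 and 2.96 FPM. The log2 ratio of Seh1cKO to progenitors was 1.98 (95% interval 1.30 to 2.69). Rps15a, a protein of the small ribosomal subunit, stood at 1.24, 4.24 and 1.92 FPM (log2 ratio 1.78). The start shared by Fau, which encodes another small-subunit protein, and Mrpl49, of the mitochondrial ribosome, stood at 1.32, 4.43 and 2.30 (log2 ratio 1.74). Anxa5, a phospholipid-binding annexin, shares its start with 1810062G17Rik and stood at 1.20, 3.96 and 3.18. Tmed9, a cargo receptor between the endoplasmic reticulum and the Golgi, stood at 1.28, 4.24 and 1.53. Rabep1, an effector of endosome fusion, Ppp1r13b and Zfand1 each had a log2 ratio of 1.69. At all 8 of these starts the Seh1cKO level was the highest of the 3 and the progenitor level the lowest, also by fold enrichment for Seh1cKO against progenitors (log2 0.78 to 1.29).

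The 8 sites with the lowest ratios in this selection were all inside genes, while 21 of the 57 sites at least 2-fold lower among all those with a −log10 q of 10 or more lay between genes. In Lsamp, a neural cell adhesion molecule, the summit held 141 fragments in progenitors, 25 in Seh1cKO cells and 133 in control cells at day 1, or 6.02, 2.31 and 7.28 FPM. The log2 ratio was −1.39 (−2.06 to −0.77). Dscam, another adhesion molecule, stood at 7.31, 2.95 and 7.61 FPM. Dner, a ligand of Notch signalling, stood at 4.91, 2.03 and 4.76, and Sema5a, a guidance semaphorin, at 5.21, 2.21 and 6.08. In these 4 genes control cells were at or near the progenitor level. In Serpine2, a secreted protease inhibitor, the levels were 4.70, 1.84 and 2.79, and in Chst11, a chondroitin sulfotransferase, 4.70, 1.94 and 2.74, so control cells were lower as well. In Lama4, a laminin chain, control cells at 1.48 were below Seh1cKO cells at 1.66, with progenitors at 4.02. The site in Chl1, an adhesion molecule of the L1 family, stands apart: 251 bp wide, it held 17260 fragments in progenitors, 3108 in Seh1cKO cells and 12632 in control cells, and by fold enrichment its log2 ratio was only −0.06. The other 7 stayed between −1.08 and −0.70 by fold enrichment.

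**Figure D3:**
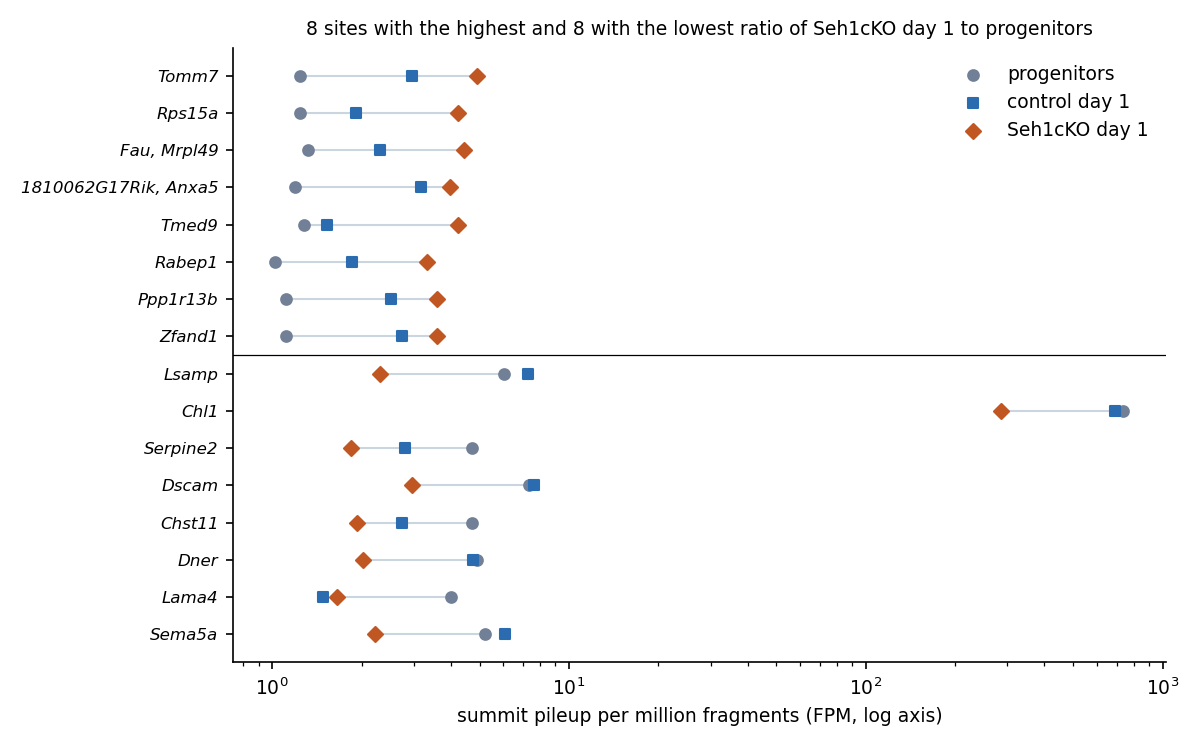
Summit pileup in FPM (log x axis) at the 8 sites with the highest (top) and the 8 with the lowest (bottom) ratio of Seh1cKO day 1 cells to progenitors among selected sites at gene loci, named by gene, with 1 point per library. Seh1cKO points (diamonds) are the rightmost in all 8 upper rows and the leftmost in 7 of the 8 lower rows, Lama4 being the exception.

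Gene starts were then read for short motifs, because the starts with high ratios could share sequence. RefSeq promoters (GRCm38.p6, 250 bases before to 50 after a start) were at hand for 20055 starts, 10429 of them with a site called in both. Printed 5′ to 3′ are 3 of the starts with the highest ratios and, for contrast, that of Nfasc, among the lowest of the myelin genes. Capitals mark matches on either strand to the GC box GGGCGG, the CCAAT box, the ETS core TTCCGG, the NRF1 core TGCGCA, the E-boxes CACGTG and CAGCTG, the CRE core TGACGT, the TATA box TATAAA or the Sox core CATTGT; matches may overlap.
Tmed9, chr13:55592885-55593184, + strand: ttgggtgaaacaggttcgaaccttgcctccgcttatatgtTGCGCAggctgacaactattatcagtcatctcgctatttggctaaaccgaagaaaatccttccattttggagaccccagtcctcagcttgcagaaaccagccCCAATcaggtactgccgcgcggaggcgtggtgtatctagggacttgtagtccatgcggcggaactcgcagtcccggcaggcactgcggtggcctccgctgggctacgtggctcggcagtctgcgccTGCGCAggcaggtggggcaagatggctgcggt
Fau, chr19:6057697-6057996, + strand: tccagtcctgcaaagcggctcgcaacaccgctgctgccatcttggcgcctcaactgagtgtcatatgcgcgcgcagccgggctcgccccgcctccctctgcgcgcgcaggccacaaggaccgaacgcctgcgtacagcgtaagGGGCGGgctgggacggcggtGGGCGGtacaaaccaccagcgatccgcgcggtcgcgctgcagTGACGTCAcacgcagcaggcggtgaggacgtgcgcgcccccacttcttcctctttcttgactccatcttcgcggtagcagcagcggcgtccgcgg
Rps15a, chr7:118116098-118116397, - strand: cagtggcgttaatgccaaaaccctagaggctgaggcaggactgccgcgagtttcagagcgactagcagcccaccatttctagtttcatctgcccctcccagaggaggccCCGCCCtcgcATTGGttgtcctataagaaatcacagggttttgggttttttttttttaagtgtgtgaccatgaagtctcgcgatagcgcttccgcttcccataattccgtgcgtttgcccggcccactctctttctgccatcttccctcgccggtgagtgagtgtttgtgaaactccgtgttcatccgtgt
Nfasc, chr1:132707277-132707576, - strand: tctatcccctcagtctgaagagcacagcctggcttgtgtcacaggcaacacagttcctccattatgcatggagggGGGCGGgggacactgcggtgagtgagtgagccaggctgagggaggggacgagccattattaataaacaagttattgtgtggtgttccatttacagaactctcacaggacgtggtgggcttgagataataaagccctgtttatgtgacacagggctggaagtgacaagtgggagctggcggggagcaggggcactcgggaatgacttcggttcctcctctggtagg
The Tmed9 promoter holds 2 NRF1 cores and 1 CCAAT box, that of Fau 2 GC boxes and 2 CRE cores, that of Rps15a 1 GC box and 1 CCAAT box, and that of Nfasc 1 GC box.

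Of the motifs searched, the NRF1 core was the one whose share differed most between promoters with high and low ratios. It stood in 27.2% of the 1067 promoters at least 2-fold higher in Seh1cKO cells, in 15.6% of all promoters called in both, and in 2.56% of the 156 with a log2 ratio of −0.5 or lower. Over all 20055 promoters it stood in 9.79%. The ETS core stood in 35.6% of the 2-fold higher promoters, 30.5% of those called in both and 19.1% of all. For the GC box the shares were 71.6%, 69.6% and 47.0%, for the CRE core 14.7%, 12.9% and 8.59%, and for CACGTG 13.2%, 10.4% and 7.88%. The CCAAT box was in 38.3%, 39.6% and 38.1%, CAGCTG in 15.2%, 14.4% and 15.7%, the TATA box in 6.19%, 5.55% and 12.7%, and the Sox core in 6.65%, 6.26% and 10.4%. Median GC content was 62.7% in the 2-fold higher promoters and in all those called in both. In the 156 with a log2 ratio of −0.5 or lower it was 58.7%, and in promoters without a peak in either library 48.7%. The median number of CG pairs was 24 in the 2-fold higher promoters, 23 in those called in both and 14 in the 156. The NRF1 core itself holds a CG pair. The part of base composition in the motif shares was not tested. These shares describe letters in a window and say nothing of which factors bind.

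Among the sites of progenitors only, the strongest at a gene locus lay on Olig2, a lineage-determining transcription factor, at chr16:91226416-91227340. It held 205 fragments in progenitors, 8.76 FPM, and no peak was called there in Seh1cKO cells or in control cells at day 1. Scaled to the Seh1cKO depth it would hold 95 fragments. That scaling leaves out local background, over which the Olig2 site was enriched 5.47-fold in progenitors, the lowest of the 8 sites named here. The next in order lay inside Erbb4, a neuregulin receptor, with 86 fragments in progenitors and 57 in control cells at day 1. Those in Shf (64 and 13), Zfp407 (66 and 42), Arhgef11 (50 and 39), Smyd2 (53 and 22) and Tmcc3 (50 and 31), and near Iqcf6 (51 and 84), also had a control day 1 peak. Of these 8 sites, 7 were thus open in both control libraries and without a call in Seh1cKO cells. Across all 2652 progenitor-only sites with a −log10 q of at least 10, 79.9% (78.4 to 81.4) had a control day 1 peak. Of all 26163 progenitor peaks at that cutoff 96.5% had one, so the progenitor-only sites were found in control cells less often. These sets were not matched for strength or position. Away from gene starts, 99.7% of progenitor peaks in decile 1 of strength had a control day 1 peak. In decile 3, with a −log10 q of 7.83 to 13.3, it was 79.2%.

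Strong sites of Seh1cKO cells only were few: 97 had a −log10 q of at least 10. Of these, 67.0% (56.7 to 76.2) had a control day 1 peak, against 99.5% of all 15224 Seh1cKO peaks at that cutoff. The strongest Seh1cKO-only site at a gene locus lay inside Cpeb4, a regulator of mRNA translation, with 37 fragments. The next lay inside Pcca, a subunit of mitochondrial propionyl-CoA carboxylase, with 31. Both were narrow, 263 and 156 bp, and neither was called in a control library. The site in Eml6 (21 fragments) was also without a call in either control. Sites at Znhit3 (25 fragments), Gm13286 (34), Gm10037 (25), Cradd (21) and Pdzrn3 (20) had control day 1 peaks of 20, 17, 15, 39 and 27 fragments.

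Counted by gene, the 2 libraries shared most open starts. Of 20665 autosomal protein-coding genes, 13186 (63.8%) had a gene-start peak in progenitors, 12211 (59.1%) in Seh1cKO cells and 13348 (64.6%) in control cells at day 1. Of the progenitor genes 11921 (90.4%) also had a Seh1cKO peak, which was 97.6% of the Seh1cKO genes. Progenitors alone had 1265 genes and Seh1cKO cells alone 290, and 47.4% and 60.7% of these had a gene-start peak in control cells at day 1. The progenitor-only starts were weak, with a median −log10 q of 3.86, against 30 for starts open in both. Among the strongest progenitor-only genes, 9430038I01Rik, Zfp369, Angptl6, Tmem69, Metap2, Matn4 and Kcnv1 all had a Seh1cKO peak in the same site that ended short of the window. Except at Matn4 this peak was of similar height, with log2 ratios from −0.43 at Metap2 to 0.69 at Tmem69. Of the 8 strongest Seh1cKO-only genes, Vtn, Mtfp1 and Slc16a5 likewise had a progenitor peak in the same site. Znhit3, Gm14305, Plekhh2, Cand2 and 2210418O10Rik had none, with 18 to 25 fragments in Seh1cKO cells, and 4 of these 5 starts had a control day 1 peak.

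Starts of progenitor genes had a median ratio below that of all gene starts. Of 29 autosomal genes in the progenitor list, 27 had a gene-start peak in progenitors, 25 in Seh1cKO cells and 25 in control cells at day 1. All 25 were among the 27, near the 90.4% over all genes. At the 26 with a gene-start site called in both, the median log2 ratio was 0.26, against 0.49 over 11803 genes, of which 1184 (10.0%) were at least 2-fold higher and 18 (0.153%) at least 2-fold lower. In the list 1 gene was higher and 1 lower. By fold enrichment the list median was −0.02 against 0.02, so the gap to all genes shrank from −0.23 to −0.04. The loci of these genes held 455 progenitor sites, of which 38.7% were called in Seh1cKO cells, against 37.4% over all genes. Away from gene starts the shares were 34.2% of 407 sites and 26.2% of 53114.

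Matn4, a matrilin of the extracellular matrix, had the lowest ratio. Its site, chr2:164403015-164403912, held 69 fragments in progenitors, 8 in Seh1cKO cells and 52 in control cells at day 1, or 2.95, 0.74 and 2.85 FPM. The log2 ratio was −1.999 (−3.27 to −0.94), and Seh1cKO cells alone were low. Tnr, the matrix protein tenascin-R, held 34, 11 and 32 fragments (log2 ratio −0.52, −1.65 to 0.50). Gpr17, a receptor of committed progenitors, held 129, 47 and 172 (−0.35, −0.86 to 0.15), and Cacng4 45, 17 and 31 (−0.29). The intervals of these last 3 include 0. Highest in the list were Fgfr1, an FGF receptor, at 43, 42 and 85 fragments (1.08, 0.43 to 1.72), Lrrn1 (0.92), Id4, an inhibitor of basic helix-loop-helix factors (0.83), and Etv5, a transcription factor downstream of FGF (0.58). Sulf2, a heparan sulfate sulfatase, had 29 fragments in progenitors, 25 in control cells and no Seh1cKO peak at its start. The start of Pdgfra, the PDGF receptor of progenitors, held 36 fragments in progenitors and 16 in Seh1cKO cells, 1.54 and 1.48 FPM, and had no control day 1 peak. Its interval of −1.01 to 0.83 spans about 2-fold in either direction. At the Pdgfra locus 5 sites were called in both libraries and 5 in progenitors only. The strongest, chr5:75163094-75163824, stood at 4.74, 3.23 and 6.79 FPM (log2 ratio −0.56, −1.15 to 0.004), lowest in Seh1cKO cells. The others called in both had log2 ratios from −0.10 to 0.11. In Cspg4, the NG2 proteoglycan, no library had a gene-start peak; within the gene 3 sites were called in both. Those at chr9:56868019-56868691 and chr9:56876703-56877314 stood at 5.04, 5.26 and 5.75 FPM and at 2.95, 2.77 and 3.18 FPM. The site at chr9:56880685-56881860 stood at 3.42, 2.21 and 5.37 FPM (log2 ratio −0.63, −1.35 to 0.05), lowest in Seh1cKO cells. Cspg4 was chosen after its values were seen.

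Starts of myelin genes had a median ratio below that of all gene starts. Of 28 autosomal genes in the list, 19 had a gene-start peak in progenitors, 17 in Seh1cKO cells and 21 in control cells at day 1. All 17 were among the 19, near the 90.4% over all genes. The median log2 ratio at 17 starts was 0.18, against 0.49 over all genes, and by fold enrichment −0.11 against 0.02. Bcas1, a marker of cells that begin to myelinate, held 42 fragments in progenitors, 10 in Seh1cKO cells and 37 in control cells (log2 ratio −0.96, −2.12 to 0.06). A pair of further sites inside Bcas1 stood at 3.89 and 5.17 FPM in progenitors, 2.21 and 2.95 in Seh1cKO cells and 7.56 and 8.16 in control cells, each with a log2 ratio of −0.81 and an interval below 0. Another site inside it, chr2:170354995-170355308, stood at 1.37, 1.29 and 1.15 FPM (log2 ratio −0.08, −1.10 to 0.86). Nfasc, the adhesion molecule neurofascin of the axon-glia junction, held 44, 11 and 107 fragments at the start printed above (−0.89, −1.99 to 0.09). Trf, transferrin, stood at −0.65 and Ugt8a, which makes galactosylceramide, at −0.39. Highest were Cldn11, a tight junction protein of myelin, with 13, 18 and 17 fragments (1.58, 0.47 to 2.73), Tspan2 (0.69), Fa2h, a fatty acid hydroxylase of myelin lipids (0.62), and Car2 (0.56). Ermn and Pllp had a gene-start peak in progenitors (11 and 20 fragments) and none in Seh1cKO cells, and Pllp had 28 in control cells. At the start of Mog, a late myelin protein, a peak of 20 fragments was called in control cells at day 1 alone; Mog was chosen after its values were seen.

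**Figure D4:**
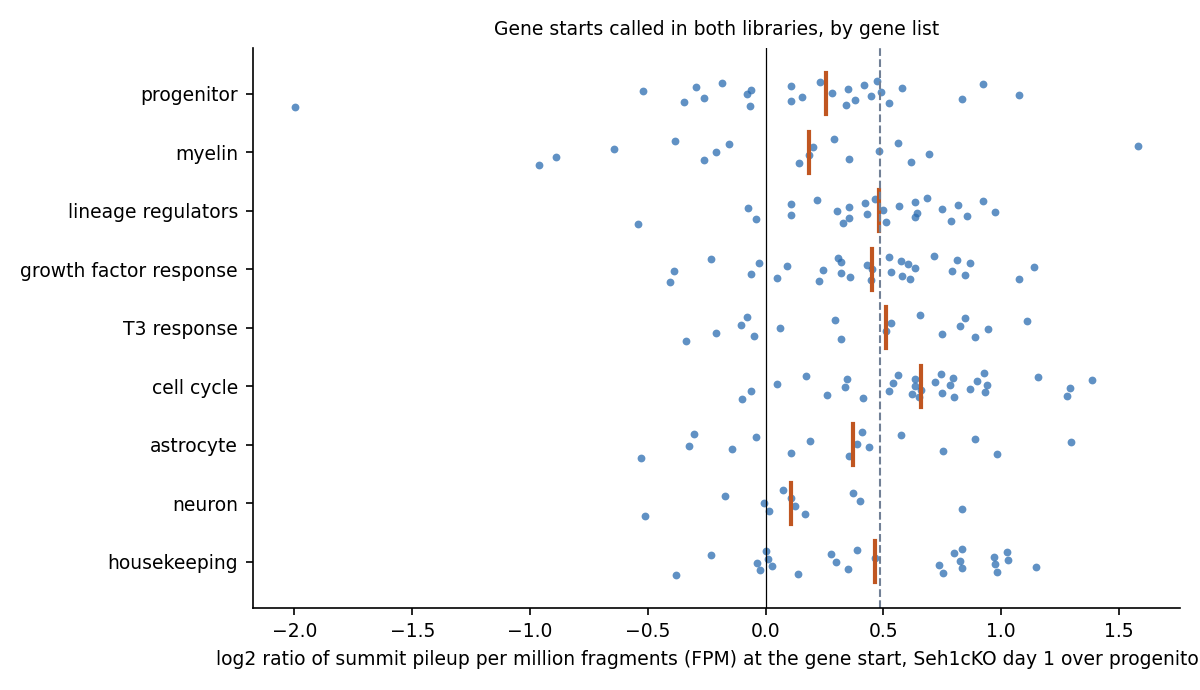
Log2 ratio of FPM, Seh1cKO day 1 cells over progenitors (x axis), at the strongest gene-start site called in both, with 1 point per gene and the list median as a vertical bar. The dashed line is the median over all genes, 0.49; the medians of the progenitor and myelin lists, 0.26 and 0.18, lie to its left and that of the cell cycle list, 0.66, to its right.

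The T3 list had a median ratio like that of all genes. Some sites at Klf9 and Hr, both direct T3 targets, stood between progenitors and control cells at day 1. The Klf9 start was highest in Seh1cKO cells, as were some gene-start sites in the flanks of the Hr locus that may belong to neighbouring genes. Of 21 autosomal genes in the T3 list, 20 had a gene-start peak in progenitors, 17 in Seh1cKO cells and 19 in control cells at day 1. All 17 were among the 20, where 90.4% of all genes open in progenitors were open in Seh1cKO cells. The median log2 ratio of 0.51 was close to the 0.49 of all genes. Klf9, a Krüppel-like factor, was chosen after its values were seen. Its promoter in GRCm38.p6, with capitals as above, lies inside a site called in all 3 libraries and is shown because further sites were called upstream of it.
Klf9, chr19:23140976-23141275, + strand: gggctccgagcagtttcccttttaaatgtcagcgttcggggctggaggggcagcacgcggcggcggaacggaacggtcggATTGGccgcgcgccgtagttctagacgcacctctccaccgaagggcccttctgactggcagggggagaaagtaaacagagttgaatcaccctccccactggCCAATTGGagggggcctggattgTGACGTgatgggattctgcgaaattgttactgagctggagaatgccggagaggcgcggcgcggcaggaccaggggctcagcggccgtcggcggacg
The promoter holds 3 CCAAT boxes and 1 CRE core. At this start the levels were 3.67 FPM in progenitors, 6.18 in Seh1cKO cells and 5.91 in control cells (log2 ratio 0.75, 0.27 to 1.23). Upstream, the site chr19:23134709-23135424 held 18 fragments in progenitors, 31 in Seh1cKO cells and 75 in control cells, or 0.77, 2.86 and 4.11 FPM. Its log2 ratio was 1.89 (1.01 to 2.82), and Seh1cKO cells stood between progenitors and control cells. The next sites, chr19:23135480-23135688 and chr19:23135785-23136178, had 16 and 26 fragments in Seh1cKO cells, no progenitor peak, and a control day 1 peak of 70 fragments that spans both.

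Hr, a corepressor of nuclear receptors, gave the same order at some sites. The gene-start sites chr14:70545139-70545547 and chr14:70577496-70578211 were instead highest in Seh1cKO cells. The locus includes 10000 bp on either side of Hr, so both may be starts of neighbouring genes. These sites stood at 1.37 and 3.85 FPM in progenitors, 3.13 and 5.72 in Seh1cKO cells and 1.70 and 4.33 in control cells. At an annotated end of Hr, chr14:70554198-70554636, there were 29 fragments in progenitors, 29 in Seh1cKO cells and 72 in control cells, or 1.24, 2.67 and 3.94 FPM (log2 ratio 1.11, 0.32 to 1.90). The site chr14:70551947-70552615 had no progenitor peak, 27 fragments in Seh1cKO cells and 72 in control cells. By fold enrichment the log2 ratios at the upstream Klf9 site and at this Hr site were 0.68 and 0.21. Nr1d1, a nuclear receptor of the clock, had a log2 ratio of 0.94, Thra, the T3 receptor alpha, 0.89, and Hdac3, a corepressor enzyme, 0.85. Lowest were Med1, a mediator subunit (−0.34), Dio2, the enzyme that makes T3 (−0.21), Ncoa2 (−0.10) and Kat2b (−0.08). Rxra, the partner of T3 receptors, and Slco1c1, a thyroid hormone transporter, had a gene-start peak in progenitors (15 and 12 fragments) and none in Seh1cKO cells; control cells had 16 at Rxra and none at Slco1c1.

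The growth factor list, which holds receptors such as Pdgfra, Fgfr1, Ntrk2 and Ntrk3 beside genes of the response, had a median log2 ratio of 0.45. That was close to the 0.49 of all genes. Of 30 genes, 30 had a gene-start peak in progenitors, 29 in Seh1cKO cells and 29 in control cells at day 1, where 90.4% of all genes open in progenitors were open in Seh1cKO cells. Etv4, a target of FGF signalling, held 47 fragments in progenitors, 48 in Seh1cKO cells and 50 in control cells (log2 ratio 1.14, 0.53 to 1.75). Ntrk2, a neurotrophin receptor, stood at 0.85, and Ccnd1, cyclin D1, at 0.87 with an interval of −0.43 to 2.14. Lowest were Fosl1, with 20, 7 and 23 fragments (−0.40), Ntrk3, the NT3 receptor (−0.39), and Etv1 (−0.23). Cell cycle genes had the highest list median among those of the progenitor, myelin, T3, growth factor and lineage lists, 0.66 at 31 starts. At least 2-fold higher were 4 of them (12.9%), near the 10.0% over all genes. By fold enrichment it was 0.24, against 0.02 over all genes.

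Starts of other cell types' genes were set beside these. Gene-start peaks numbered 16 of 20 in progenitors and 17 in Seh1cKO cells for the astrocyte list, 14 and 13 of 22 for neurons, 7 and 5 of 21 for microglia and macrophages, and 6 and 8 of 24 for endothelial and mural cells. Over all genes the shares were 63.8% in progenitors and 59.1% in Seh1cKO cells. Their median log2 ratios were 0.37, 0.11, −0.09 and 0.41. The part of other cells in the comparison was not tested.

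Away from gene starts, Seh1cKO cells and control cells differed in how they stood to progenitors. At the 12860 such sites at gene loci called in all 3 libraries, the median log2 ratio to progenitors was 0.11 in Seh1cKO cells and 0.43 in control cells at day 1, and 42.7% and 24.0% of sites were below the progenitor level. At the 131 sites of the progenitor list the medians were −0.21 and 0.36, with 83 sites below the progenitor level in Seh1cKO cells and 36 in control cells. At the 49 sites of the myelin list they were −0.08 and 0.66, with 27 and 7 below. At the 35 sites of the T3 list they were 0.26 and 0.36. The cell cycle list went the other way, with 0.37 in Seh1cKO cells and 0.12 in control cells over 24 sites. By fold enrichment the medians were −0.24 and 0.10 for the progenitor list and −0.27 and 0.34 for the myelin list, against −0.18 and 0.18 over all 12860 sites. On that scale both lists were close to other sites in Seh1cKO cells. Pileups are whole numbers, so equal medians such as 0.36 can recur.

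**Figure D5:**
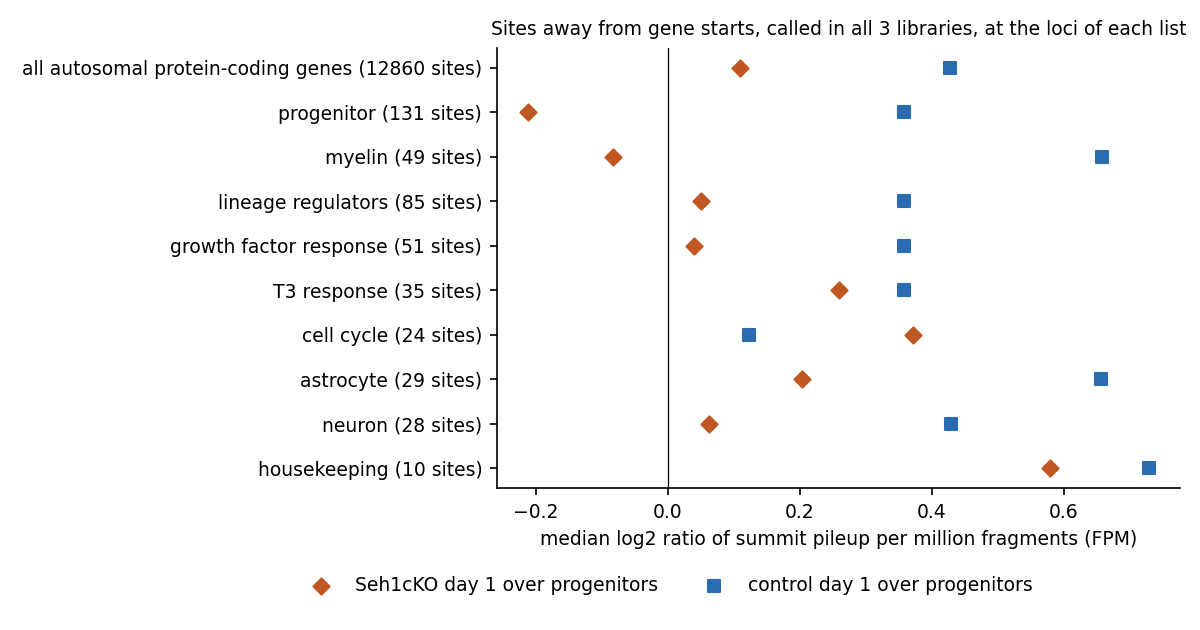
Median log2 ratio of FPM (x axis) at sites away from gene starts that were called in all 3 libraries, by gene list, for Seh1cKO day 1 cells (diamonds) and control day 1 cells (squares), both over progenitors. The diamonds of the progenitor and myelin lists are below 0 at −0.21 and −0.08, and the squares at 0.36 and 0.66.

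The genes the study is about had open starts in both libraries. At the start of Seh1l the summit held 77 fragments in progenitors, 47 in Seh1cKO cells and 70 in control cells at day 1, or 3.29, 4.33 and 3.83 FPM (log2 ratio 0.40, −0.16 to 0.94). An open start does not check the knockout, since the deleted part of the gene is unknown here. Brd7, a subunit of a SWI/SNF chromatin remodelling complex, held 35, 20 and 19 fragments (0.30, −0.57 to 1.13). The start of Olig2 held 88, 55 and 84 (0.43, −0.08 to 0.93). By fold enrichment its log2 ratio was larger, 1.49, from 2.40 in progenitors to 6.75 in Seh1cKO cells. The Olig2 promoter in GRCm38.p6 is shown, with capitals as above, because a stronger peak next to it was called in progenitors alone.
Olig2, chr16:91225300-91225599, + strand: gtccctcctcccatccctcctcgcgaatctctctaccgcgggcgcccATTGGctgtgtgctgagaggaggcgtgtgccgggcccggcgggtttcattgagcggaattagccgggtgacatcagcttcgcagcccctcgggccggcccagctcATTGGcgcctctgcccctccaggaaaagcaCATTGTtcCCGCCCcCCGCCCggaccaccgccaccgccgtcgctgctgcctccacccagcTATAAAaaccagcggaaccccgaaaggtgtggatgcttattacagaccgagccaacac
It holds 2 GC boxes, 2 CCAAT boxes, 1 TATA box and 1 Sox core. On either side of the gene the sites chr16:91222463-91223102 and chr16:91233319-91233951 stood at 3.08 and 4.40 FPM in progenitors, 1.94 and 2.95 in Seh1cKO cells and 1.86 and 7.01 in control cells. Their log2 ratios of −0.67 and −0.58 had intervals that include 0, and by fold enrichment the former reversed to 0.45. At Sox10, a regulator of the same lineage chosen after its values were seen, the site chr15:79151929-79153360 stood at 4.02 FPM in progenitors, 2.58 in Seh1cKO cells and 3.78 in control cells (−0.64, −1.30 to −0.02).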

How the data were processed

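Peak tables of 3 ATAC-seq libraries were used, 1 per group. The build mm10 and the tools Bowtie2, SAMtools and MACS2 are named per the submitters' processing notes. Per the file headers, the authors called peaks in each library separately with MACS 2.1.2_dev at a q cutoff of 0.05, with no control library and with all duplicate fragments kept, so amplified copies can add to a pileup. The deposited signal is the pileup in fragments at a peak's summit, per the file headers. The −log10 p and −log10 q columns are the authors', and their damaged names were settled by recomputing p from pileup and fold. The deposited fold enrichment is a ratio to local background, per the file headers. Scores were used only to rank and filter peaks within a list.

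Computed here, with Python 3.11.15, pandas 2.3.3 and scipy 1.17.1: overlaps of at least 1 bp, sites, and the highest pileup of each library in a site per 1000000 header fragments (FPM). Ratio intervals are exact conditional binomial, shares exact Clopper-Pearson, both at 95%; they leave out amplification, as no molecular identifiers were counted. A locus was a gene with 10000 bp on either side. Starts came from the RefSeq promoter table for 16457 of 20665 autosomal protein-coding genes, and for the other 4208 both annotated ends were used. Where a control day 1 peak spans several sites, each carries its value. Named were the 8 highest and 8 lowest sites (−log10 q of at least 10 in both, under 3000 bp wide), the 8 strongest sites and gene starts of each library alone, the 4 highest and 4 lowest genes of 4 lists with those open in 1 library alone, and Seh1l, Brd7 and Olig2. Some genes this rule names are not reported here. The members, lists and rules were chosen with earlier results of these data known. The overlap and ratio steps were tested on simulated peak lists.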

Additional observations from a re-analysis of the deposited data

How the results depend on the processing

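No paired analysis was possible because each group has 1 library, and for the same reason no replicate could be left out. The share of Seh1cKO peaks called in progenitors (78.5%) was 74.5% with an overlap of at least 50% of the shorter peak, 91.1% at a −log10 q of 5 or more in both lists and 70.2% with lists of equal length. The share of progenitor peaks called in Seh1cKO cells (33.3%) was 31.4%, 53.5% and 68.3% under the same settings; both stayed within their intervals with the sex chromosomes added. The median log2 ratio (0.27) reversed to −0.087 by fold enrichment and was 0.40 at a −log10 q of 10 or more in both. Sites at least 2-fold lower (542) numbered 858 by fold enrichment, 57 at a −log10 q of at least 10 and 1606 centred on the median; sites at least 2-fold higher (2315) numbered 186, 1008 and 724. The cause of these shifts was not tested. Taking only sites with 1 peak of each library changed none of these 3 results beyond their limits, and a window of 500 bp or a −log10 q of at least 5 kept the counts of genes open in 1 library within 1.5 times. The SD of ratios was 0.474, 0.518 and 0.458 for Seh1cKO against progenitors, Seh1cKO against control day 1 and the 2 controls at a −log10 q of at least 10, and 0.428, 0.483 and 0.461 by fold enrichment. Under alternatives chosen after seeing the data, the difference between gene-start and other sites (0.36) was 0.18 by fold enrichment, 0.39 at a −log10 q of at least 10, 0.30 averaged over deciles of level and 0.35 with a 500 bp window. The Seh1cKO library had 46.3% of the progenitor fragments, which limits what could be called in it at weak progenitor sites.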

Other observations

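Gene families and loci chosen after their values were seen add to the picture, as values with no test. At gene starts called in both libraries, genes of complex I of the respiratory chain (Nduf, 44 genes) had a median log2 ratio of Seh1cKO cells to progenitors of 0.69, with 20.5% at least 2-fold higher. Proteasome subunits (37 genes) had 0.61 and 24.3%, and cytoplasmic ribosomal proteins (72 genes) 0.67 and 13.9%, against 0.49 and 10.0% over all genes. Semaphorins (14 genes) had 0.39 and protocadherins (32 genes) −0.07, both with no gene past 2-fold. By fold enrichment the medians were 0.22, 0.14, 0.11, −0.09 and −0.49, against 0.02 over all genes.

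At 105 loci, at least 10 sites away from gene starts were called in all 3 libraries. Their median log2 ratio of FPM to progenitors was below 0 at 46 loci in Seh1cKO cells and at 5 in control day 1 cells. In Seh1cKO cells the median of these locus medians was 0.03. Counted by site, 42.7% and 24.0% of all 12860 such sites at gene loci were below 0. By fold enrichment the medians over the 12860 sites were −0.18 and 0.18. Among the lowest of the 105 loci in FPM were Sox6 and Sox5, SoxD factors of progenitors. They had −0.48 over 10 sites and −0.32 over 18, where control cells had 0.26 and 0.24. Tns3, a tensin that marks cells leaving the progenitor stage, had −0.36 in Seh1cKO cells and 0.75 in control cells over 11 sites. Highest were Tenm3 and Robo1, with 0.47 and 0.44 in Seh1cKO cells and 0.52 and 0.42 in control cells.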
